A study of Mus musculus with 12 samples.

Results

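The proteasome genes of the mouse were examined in spinal cord white matter before and after a demyelinating injury. Members were the protein-coding genes whose symbol begins with Psma, Psmb, Psmc, Psmd, Psme, Psmf or Psmg followed by a number, and 50 of the 46078 genes counted met this rule. The rule also takes in Psmc3ip, a meiotic recombination protein that is named for its binding to Psmc3 and is no subunit. A further 4 genes with such names were pseudogenes with at most 1 count in a pool and were left out. All mice were C57Bl6, and the tissue was ventrolateral spinal cord white matter collected by laser capture microdissection, the cutting of a selected region out of a tissue section under the microscope. The 4 groups were young naïve and middle-aged naïve mice without a lesion, and young injured and middle-aged injured mice, which had been given lysolecithin, a detergent-like lipid that strips myelin, 72 h (day 3) earlier. The methods give young as 6 weeks and middle-aged as 8 months, while the sample labels hold only the words. Each group had 3 libraries of amplified RNA, each from a pool of 5 mice, so a p-value measures the spread between pools and not that between mice.

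The proteasome is the protease that degrades proteins tagged with ubiquitin. Its barrel, the 20S core, has outer rings of alpha subunits and inner rings of beta subunits, of which Psmb5, Psmb6 and Psmb7 carry the cutting activity in most cells. The 19S cap, built from Psmc ATPases and Psmd subunits, binds and unfolds the tagged protein, whereas activators of the Psme family open the barrel without ubiquitin. In immune cells, and in other cells exposed to interferon, Psmb8, Psmb9 and Psmb10 take the places of Psmb5, Psmb6 and Psmb7 in newly built barrels, and the resulting immunoproteasome is known for making peptides for MHC class I. Psmb8 and Psmb9 lie in the MHC region together with Tap1 and Tap2, which carry these peptides into the endoplasmic reticulum.

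The pools held 9834447 to 12807437 counts on genes, and values are given as CPM, the count relative to the size of the library after edgeR's TMM scaling. The floor of detection, 3 counts, was 0.234 to 0.305 CPM, and it covers counting error only because amplified reads are not independent molecules. Pools of a group correlated across genes with r between 0.937 and 0.988, and both lowest values involved middle-aged naïve replicate 2. That pool bears on the members. Of the 49 members that passed the filter on low counts, it held the highest level of the 6 naïve pools for 31, and the highest of all 12 pools for 20. No such count over all genes is given here, so this is not read as a trait of the members. The counts of members called are given with and without that pool. The markers of oligodendrocytes, the myelin-forming cells, were abundant in naïve tissue, with 6 genes summing to 86600 to 101800 CPM in young and 52950 to 60210 CPM in middle-aged mice. In injured pools they summed to 18220 to 20230 CPM and 7922 to 12430 CPM. In bulk tissue, fewer cells of a type and less RNA per cell cannot be told apart.

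After lysolecithin, the 3 immunoproteasome genes and the activators Psme1 and Psme2 rose at both ages, while the constitutive barrel and cap genes had a median log2 fold change of 0.10 at both ages, or 0.34 at middle age without middle-aged naïve replicate 2. Psmb8 rose 14.2-fold in young and 6.13-fold in middle-aged mice, whereas Psmb5, the subunit it replaces, did not pass the test in either. Among all members tested in young mice, 13 of 49 (26.5%) rose and 2 (4.08%) fell, against 28.3% and 26.3% of all 15866 genes tested. In middle-aged mice 18 of 49 (36.7%) rose and 3 (6.12%) fell, against 29.2% and 29.3% of all genes. The median log2 fold change of the members was 0.16 in young and 0.22 in middle-aged mice, beside 0.00050 and -0.032 for all genes. The share of members that rose was thus near the background in young mice, and the share that fell was below it at both ages. Without middle-aged naïve replicate 2, 25 of 49 (51.0%) rose in middle-aged mice, against 30.3% of all genes then tested, and the median was 0.48. The same fit gave 18 (36.7%) that rose and 4 (8.16%) that fell in young mice, against 30.7 and 28.9% of all genes. Of the members that rose, 12 did so at both ages (92.3% of those in young, 66.7% of those in middle-aged mice), beside 86.7% and 83.9% for all genes. Psmc1 and Psmc5 fell at both. Calls in opposite directions at the 2 ages were made for 0 members and for 11 of all genes.

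**Figure D1:**
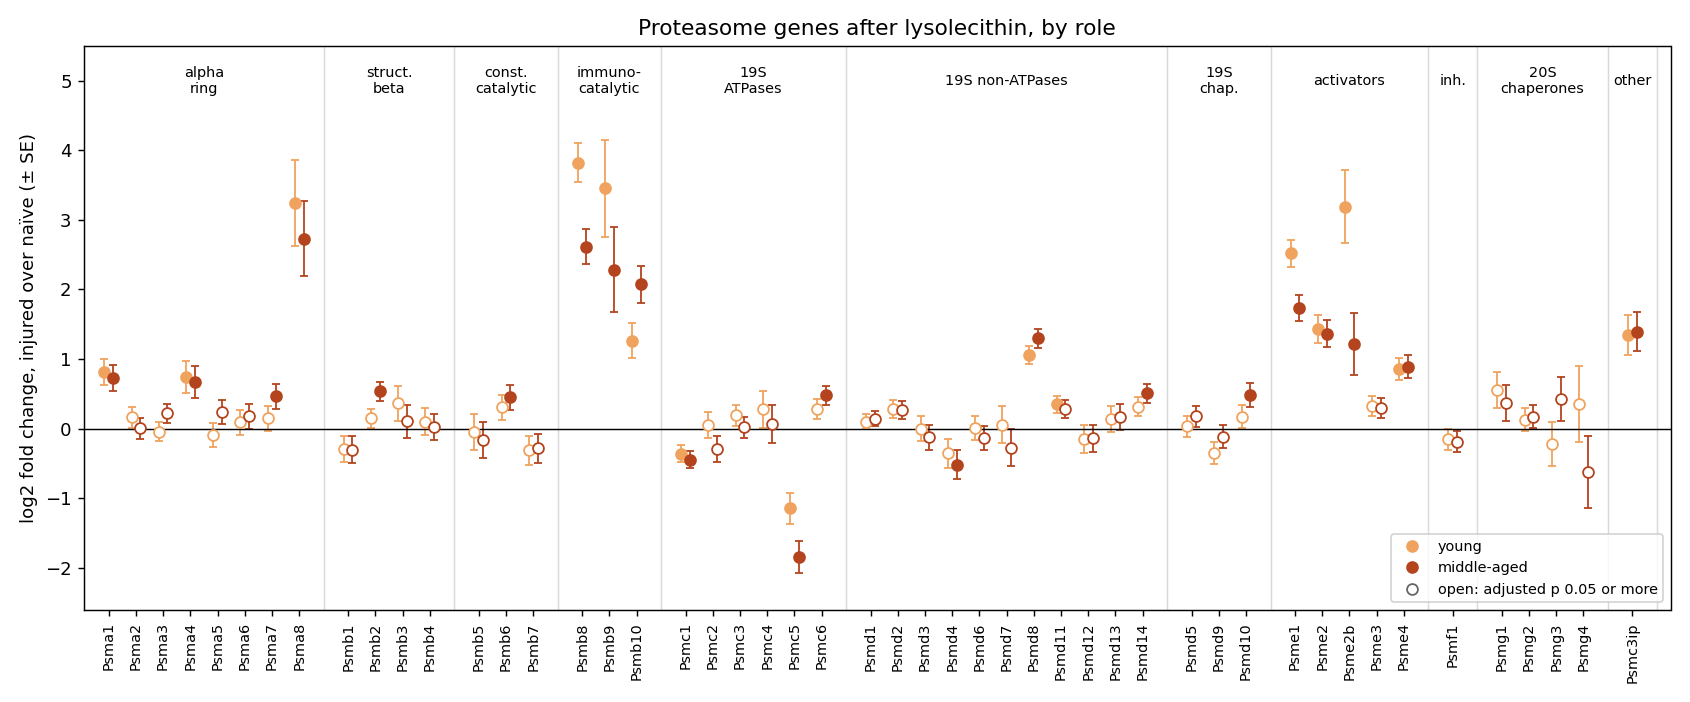
Log2 fold change of injured over naïve white matter (y axis, points with standard error) for the 49 members tested, grouped by role, in young (orange) and middle-aged (brown) mice. Filled points had an adjusted p under 0.05 from edgeR's quasi-likelihood test. The immunoproteasome subunits lie between 1.26 and 3.82, while Psmc5, at -1.15 and -1.85, is the lowest member at both ages.

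The 3 immunoproteasome genes and their counterparts lie in separate places of the GRCm38 genome, apart from Psmb8 (chr17:34197721-34201454, plus strand) and Psmb9 (chr17:34181987-34187764, minus strand), which are neighbours. Psmb10 is at chr8:105935735-105938444 and Psmb7 at chr2:38588036-38644087, both on the minus strand. Psmb6 is at chr11:70525367-70527858 on the plus strand. Psmb5 (chr14:54614119-54618022, minus strand) shares its chromosome with Psme1 (chr14:55578123-55581529, plus strand) and Psme2 (chr14:55587441-55591113, minus strand).

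Short motifs were searched on both strands in the 250 bases before the RefSeq start of each gene (GRCm38.p6), where 42 of 50 members had a sequence. Psma8, Psmb1, Psmb2, Psmb7, Psmc3, Psmd3, Psmd7 and Psmg2 had none in the table used. The motifs were GAAANNGAA, the core of the interferon-stimulated response element, TTCNNNGAA, the core of the gamma-activated site, and TGACNNNGC, the core of the antioxidant response element. They occurred in 7.13, 7.02 and 10.2% of all 32851 windows. Of the 45 windows of members, 3 (6.67%), 2 (4.44%) and 5 (11.1%) held them, shares near those of all genes. The members were Psmb3, Psmd4 and Psmd9 for the first, Psmb8 and Psmg1 for the second, and Psmb5, Psmb6, Psmc6, Psmd12 and Psmd9 for the third. The windows of Psmb9, Psmb10, Psme1 and Psme2 held no match. Those of Psmb9 and Psme1 lie within the annotated gene, and those of Psmb10 and Psme2 partly so. Psmb9 and Tap1 are transcribed away from each other, and 225 of their 250 upstream bases are the same stretch. The matches of the catalytic subunits, 1 immunoproteasome and 2 constitutive genes, are shown with the motif in capitals and its neighbours in lower case, 5′ to 3′ on the strand of the gene.
Psmb8, chr17:34198088-34198116, plus strand: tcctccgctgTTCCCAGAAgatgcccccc
Psmb5, chr14:54618024-54618052, minus strand: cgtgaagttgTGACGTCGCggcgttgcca
Psmb6, chr11:70525328-70525356, plus strand: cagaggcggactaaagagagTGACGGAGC
The Psmb8 match begins 97 bases before the RefSeq start and lies in an exon of the transcript Psmb8-201, which begins further upstream. Those of Psmb5 and Psmb6 begin 47 and 9 bases before the start, outside the annotated exons of these genes. A match describes the letters only.

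Psmb8 replaces Psmb5 and cuts after hydrophobic residues. It stood at 1.82, 1.81 and 2.15 CPM in the young naïve pools and at 22.6, 32.7 and 26.7 CPM in the young injured pools. In middle-aged mice it stood at 5.46, 7.02 and 3.52 CPM in naïve and at 35.9, 35.3 and 26.3 CPM in injured pools. Every injured pool lay above every naïve pool, and the middle-aged naïve pools lay above the young naïve ones. The log2 fold change after injury was 3.82 in young (standard error, SE, 0.27, adjusted p = 4.07e-08, edgeR) and 2.62 at middle age (SE 0.25, adjusted p = 5.28e-07). Exons of Psmb8 share 498 bases with the antisense gene Gm20496, which had 7 to 189 counts per pool, and the strand setting of the counting is not given in the sources used here.

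Psmb9 replaces Psmb6. It had 8, 8 and 6 counts in the young naïve pools and 75, 143 and 90 in the young injured pools. In middle-aged mice the naïve pools had 40, 0 and 25 counts and the injured pools 140, 114 and 95. The pool without a count, replicate 2, was under the floor of 3 counts. Psmb9 passed the filter on low counts only through its injured pools, where it is high. The log2 fold change was 3.45 in young (SE 0.70, adjusted p = 0.000772) and 2.28 at middle age (SE 0.61, adjusted p = 0.00527). Without middle-aged naïve replicate 2, the middle-aged value was 1.74 (adjusted p = 0.000667). Psmb9 shares 212 exonic bases with Tap1 on the opposite strand.

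Psmb10 replaces Psmb7, and its gene lies outside the MHC. It stood at 8.65, 5.52 and 6.34 CPM in young naïve pools and at 16.3, 19.2 and 13.8 CPM in young injured pools. The middle-aged pools held 4.31, 4.09 and 5.75 CPM in naïve and 20.6, 25.3 and 14.1 CPM in injured tissue. Injured and naïve pools did not overlap at either age. The log2 fold change was 1.26 in young (SE 0.25, adjusted p = 0.00072) and 2.07 at middle age (SE 0.26, adjusted p = 9.97e-06).

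Psmb5, the counterpart of Psmb8, stood at 15.7, 13.5 and 16.9 CPM in young naïve and at 13.6, 15.5 and 15.4 CPM in young injured pools. The middle-aged values were 14.0, 28.3 and 13.2 CPM in naïve and 16.8, 19.2 and 13.5 CPM in injured pools. The groups overlapped at both ages, with log2 fold changes of -0.051 (SE 0.26, adjusted p = 0.886) and -0.16 (SE 0.26, adjusted p = 0.614). Without middle-aged naïve replicate 2, the second of these turned to 0.28 (adjusted p = 0.199). Of the 31-base stretches of Psmb5 transcripts, 71.7% also occur in transcripts of other genes, so its level depends on how shared reads were counted. The handling of such reads is not given in the sources used here.

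Psmb6, which cuts after acidic residues, had 21.8, 24.5 and 22.5 CPM in young naïve and 28.3, 29.2 and 27.7 CPM in young injured pools. The middle-aged pools had 21.1, 28.4 and 20.7 CPM in naïve and 34.7, 37.1 and 24.0 CPM in injured tissue. The young pools did not overlap, but the log2 fold change of 0.31 (SE 0.18) did not pass the test (adjusted p = 0.167). The middle-aged pools overlapped, and their value of 0.45 (SE 0.18) passed it, at an adjusted p of 0.0447. This call was lost in 9 of 12 fits with a pool left out, in which the value ranged from 0.32 to 0.63, and was 0.62 (adjusted p = 0.00757) without naïve replicate 2.

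Psmb7, which cuts after basic residues, had the highest level per kilobase of the 6 catalytic genes in every group. It stood at 166, 207 and 163 CPM in young naïve and at 138, 149 and 144 CPM in young injured pools. In middle-aged mice the naïve pools had 142, 263 and 131 CPM and the injured pools 147, 142 and 150.1 CPM. Its log2 fold changes of -0.31 (SE 0.21) and -0.28 (SE 0.21) missed the threshold (adjusted p = 0.214 and 0.25). Without middle-aged naïve replicate 2, the value in young mice was the same to 2 decimals, and it passed the test (adjusted p = 0.0201), while the middle-aged value turned to 0.11 (adjusted p = 0.453). The exons of Psmb7 share 405 bases with Nek6 on the opposite strand.

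**Figure D2:**
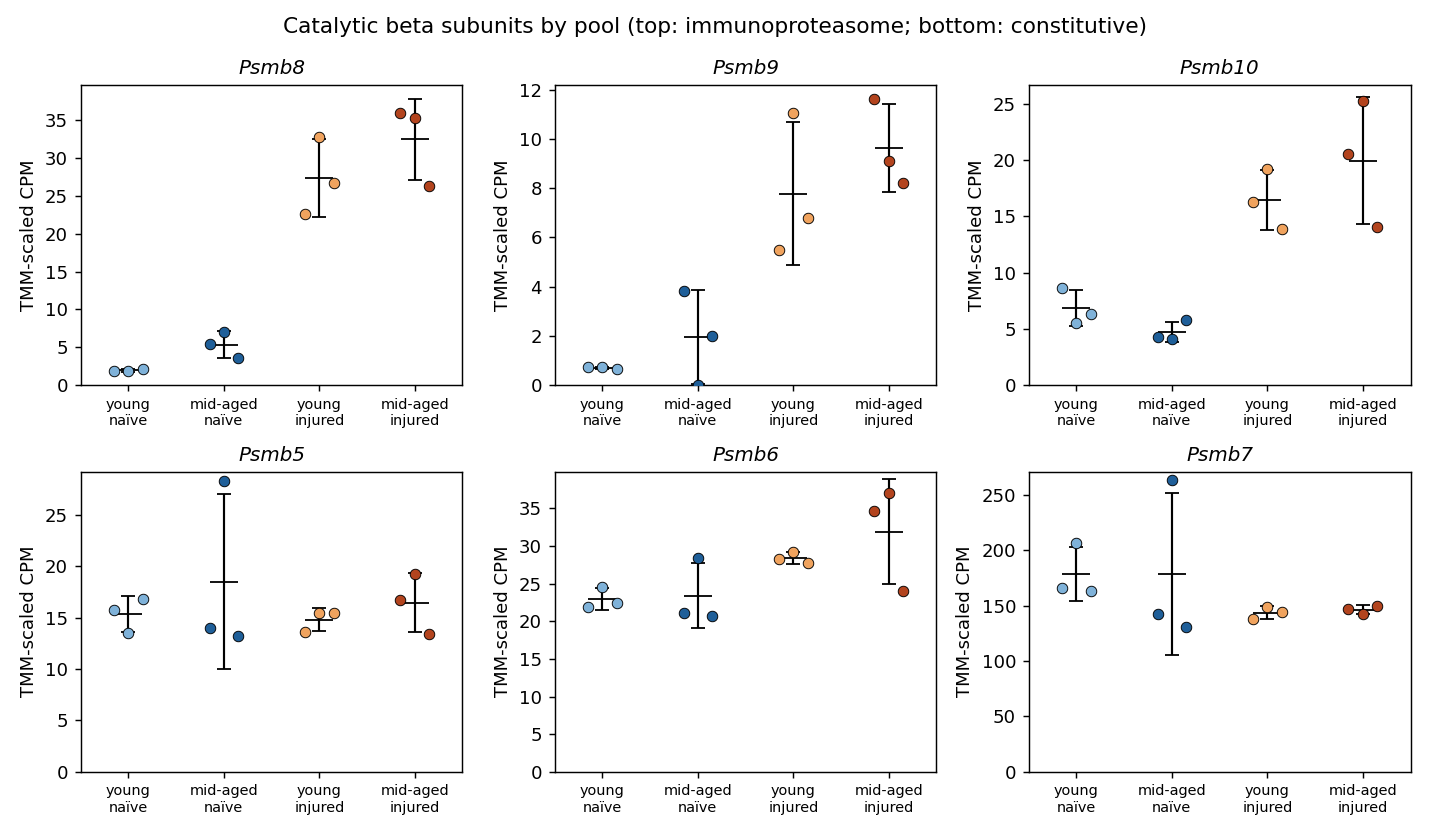
TMM-scaled CPM (y axis, from 0) of the 3 immunoproteasome subunits (top) and their constitutive counterparts (bottom) in the 3 pools of each of the 4 groups. Points are pools, and bars give the mean and SD. Psmb8, Psmb9 and Psmb10 are higher in every injured pool than in every naïve pool of the same age, whereas Psmb5 overlaps between naïve and injured pools, and middle-aged naïve replicate 2 is the highest point for Psmb5 and Psmb7.

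The balance within each pair was followed in single pools, where the ratio of counts needs no scaling between libraries. Psmb8 counts were 0.116 to 0.134 of the Psmb5 counts in young naïve pools and 0.248 to 0.390 in middle-aged naïve pools. In injured pools they were 1.67 to 2.12 times the Psmb5 counts in young and 1.83 to 2.14 times in middle-aged mice. These ratios of counts are not corrected for transcript length, so they serve to compare pools and not the levels of the genes. On the log2 scale the ratio was -2.99 ± 0.11 (SD, n = 3) in young naïve and 0.87 ± 0.19 in young injured pools, a difference of 3.86. The middle-aged ratio went from -1.76 ± 0.35 to 0.98 ± 0.11, a difference of 2.74.

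The ratio of Psmb10 to Psmb7 gained 1.58 log2 units in young mice, from -4.73 ± 0.48 to -3.14 ± 0.22. In middle-aged mice it rose by 2.27, from -5.19 ± 0.76 to -2.92 ± 0.47 (SD, n = 3 each). Psmb10 thereby went from 1.53 to 4.95% of the pair's counts in naïve pools to 8.56 to 15.1% in injured pools. For Psmb9 and Psmb6, 0.5 was added to both counts because 1 pool had no Psmb9. The log2 ratio rose by 3.02 in young mice, from -4.94 ± 0.10 to -1.93 ± 0.49. In middle-aged mice it rose by 3.24, from -4.96 ± 3.60 to -1.71 ± 0.27, and without middle-aged naïve replicate 2 by 1.18.

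For all 3 pairs, naïve and injured pools did not overlap at either age. Within an age the 2-sided exact permutation test gave p = 0.1 for each pair, the smallest value that 3 pools against 3 allow. When naïve and injured pools were permuted inside each age and the ages combined, the exact p was 0.005 for each of the 3 pairs, again the smallest possible, and adjustment over these 3 tests leaves it at 0.005. Between the ages, the naïve pools did not overlap for Psmb8 and Psmb5 (difference 1.24, exact p = 0.1), while those of the other pairs did (exact p = 1.0 for Psmb9 and 0.5 for Psmb10).

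**Figure D3:**
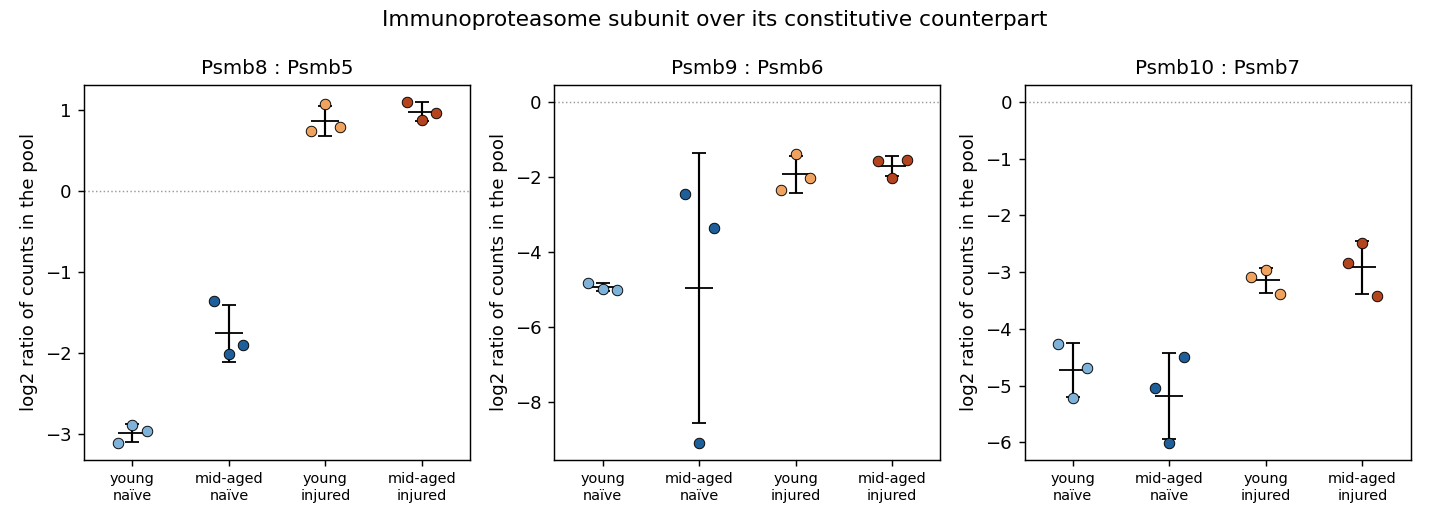
Log2 ratio of the counts of each immunoproteasome subunit to those of its constitutive counterpart (y axis) in each pool, with the mean and SD of the 4 groups. The dotted line marks equal counts, which are not corrected for transcript length. Injured pools lie above naïve pools of the same age for each pair. The lowest point of the middle panel is middle-aged naïve replicate 2, where Psmb9 had 0 counts.

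To set the levels of different genes side by side, CPM was divided by the kilobases of transcript, using the length of the principal coding transcript. On this scale the immunoproteasome genes made up 2.55 to 4.20% of the summed level of the 6 catalytic genes in young naïve pools and 2.47 to 5.45% in middle-aged naïve pools. They made up 15.2 to 19.1% in young injured and 15.9 to 20.01% in middle-aged injured pools. Psmb7 made up most of the constitutive sum. At 154 CPM per kilobase in both naïve groups it stood far above Psmb6 (28.7 and 29.3) and Psmb5 (17.1 and 20.6), although the subunits are present in equal number in the barrel. After injury Psmb8 reached 16.8 ± 3.14 (SD, n = 3) CPM per kilobase in young and 19.95 ± 3.30 in middle-aged mice, beside 16.5 ± 1.22 and 18.3 ± 3.22 for Psmb5. On this scale Psmb8 was above Psmb5 in 4 of 6 injured pools (0.919 to 1.18 of its level) and below it in all 6 naïve pools (0.0639 to 0.216). Of the 31-base stretches, 71.7% of those of Psmb5 and 13.7% of those of Psmb8 also occur in transcripts of other genes. The order of these genes in injured pools, and the shares above, thus depend on how shared reads were counted. Psmb9 remained the lowest of the catalytic genes, at 5.75 ± 2.16 and 7.12 ± 1.31 CPM per kilobase.

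Psmb11, the catalytic subunit of thymic epithelium, is the thymus counterpart of this set. It had 0 to 7 counts per pool in all groups, did not pass the filter and was not tested.

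Of the 5 activators, 4 (80.0%) rose at both ages, beside 28.3 and 29.2% of all genes, and Psme3 did not pass the test. The 4 include Psme2b, a near copy of Psme2 whose changes are uncertain, as given below. Psme1 and Psme2 form the interferon-inducible PA28 ring. Psme1 stood at 8.10, 9.33 and 7.73 CPM in young naïve and at 41.3, 51.0 and 52.0 CPM in young injured pools. At middle age it had 11.8, 19.2 and 14.5 CPM in naïve and 55.4, 54.6 and 41.3 CPM in injured pools. All injured pools lay above all naïve ones, with log2 fold changes of 2.52 (SE 0.20, adjusted p = 1.18e-07) and 1.73 (SE 0.19, adjusted p = 2.66e-06).

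Psme2 had 7.19, 10.05 and 11.9 CPM in young naïve and 24.7, 27.7 and 26.2 CPM in young injured pools, and 10.7, 12.2 and 9.59 CPM against 32.5, 25.6 and 25.6 CPM in middle-aged mice. Its log2 fold changes were 1.43 (SE 0.20, adjusted p = 2.56e-05) and 1.37 (SE 0.20, adjusted p = 3.28e-05). Psme2b, a near copy of Psme2 with 78.4% of its 31-base stretches shared, had 1 to 3 counts in young naïve pools, 5 to 10 in middle-aged naïve pools and 15 to 32 in injured pools. Reads of the pair cannot be told apart over most of this gene, so its log2 fold changes of 3.19 (adjusted p = 0.000134) and 1.22 (adjusted p = 0.0302) are uncertain. Psme2b passed the filter on low counts only through its injured pools. The middle-aged call was lost without replicate 2 or 3 of the naïve or replicate 1 of the injured middle-aged mice (1.03, 1.26 and 0.83).

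Psme3 forms the nuclear PA28 ring, which is not known as an immunoproteasome partner. It stood at 60.2, 61.4 and 49.9 CPM in young naïve and 81.1, 61.2 and 72.5 CPM in young injured pools. The middle-aged pools had 74.9, 59.2 and 64.7 CPM in naïve and 73.5, 85.2 and 85.4 CPM in injured tissue. Naïve and injured pools overlapped, and log2 fold changes of 0.32 (SE 0.14, adjusted p = 0.0661) and 0.30 (SE 0.14, adjusted p = 0.0852) missed the threshold. Leaving out middle-aged naïve replicate 2, the young value of 0.33 passed it (adjusted p = 0.0426). Psme4 encodes PA200, a single-chain activator. It rose from 37.9 ± 4.06 to 68.7 ± 6.13 CPM (SD, n = 3) in young and from 39.3 ± 9.17 to 73.2 ± 3.98 CPM in middle-aged mice, with log2 fold changes of 0.86 (adjusted p = 0.000404) and 0.89 (adjusted p = 0.000259). Psmf1, the inhibitor PI31, had log2 fold changes of -0.15 and -0.19 and did not pass the test (adjusted p = 0.407 and 0.297).

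**Figure D4:**
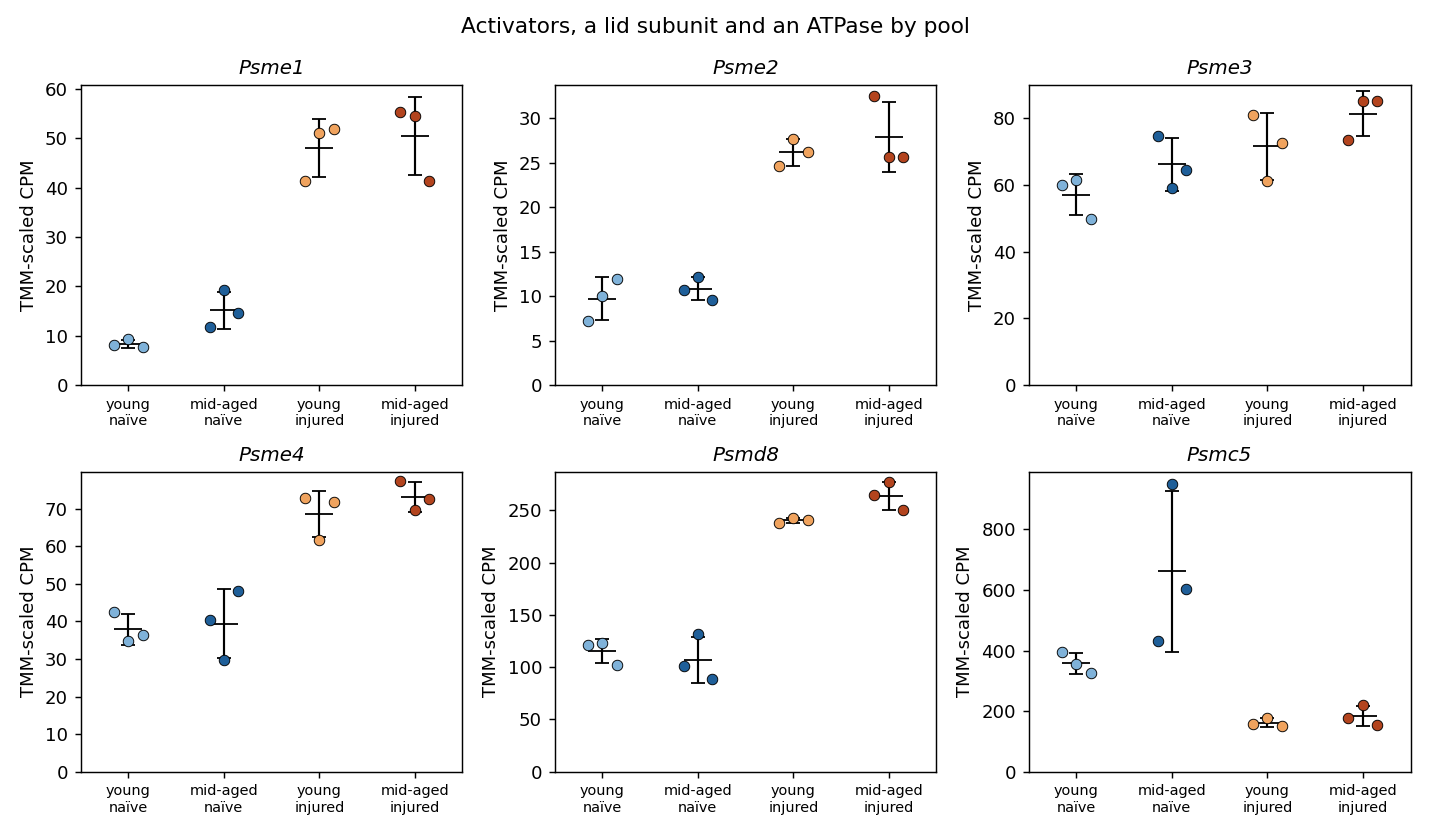
TMM-scaled CPM (y axis, from 0) by pool for the activators Psme1 to Psme4, the 19S subunit Psmd8 and the 19S ATPase Psmc5. Points are pools, and bars give the mean and SD. Psme1, Psme2, Psme4 and Psmd8 are higher in every injured pool and Psmc5 is lower in every injured pool than in the naïve pools of the same age, whereas Psme3 overlaps. Psmc5 reached 950 CPM in middle-aged naïve replicate 2.

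The constitutive genes of the barrel and the cap were taken as the 31 members of the alpha ring without Psma8, the structural and constitutive catalytic beta subunits and the 19S ATPases and non-ATPases. In young mice 4 of 31 (12.9%) rose and 2 (6.45%) fell, with a median log2 fold change of 0.10. In middle-aged mice 8 (25.8%) rose and 3 (9.68%) fell, also with a median of 0.10. Each of these shares was below the 28.3, 26.3, 29.2 and 29.3% of all genes. In middle-aged mice this depended on 1 pool. Without naïve replicate 2, 15 of 31 (48.4%) rose and 2 (6.45%) fell, the former against 30.3% of all genes then tested, and the median was 0.34. In young mice, whose pools were all kept, the same fit gave 7 (22.6%) that rose and 4 (12.9%) that fell. All genes stood at 30.7 and 28.9% in that fit, and the median of the constitutive genes was 0.10. Scaled by library totals, 12 rose and 1 fell in young and 11 rose and 2 fell in middle-aged mice. Medians over all genes then stood 0.196 and 0.109 higher than with TMM, and the share of all genes called is not given here.

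Of the alpha subunits, which gate the barrel, Psma1 and Psma4 rose at both ages. Psma1 went from 90.7 ± 14.7 to 159 ± 6.52 CPM (SD, n = 3) in young and from 108 ± 36.0 to 178 ± 9.89 CPM in middle-aged mice, with log2 fold changes of 0.81 (adjusted p = 0.00205) and 0.73 (adjusted p = 0.00389). Psma4 rose by 0.74 and 0.67, and its middle-aged call was lost in 4 of 12 fits with a pool left out. Psma7 rose in middle-aged mice only by the test, at 0.46 (adjusted p = 0.0402), and lost its call in 6 of 12 such fits. The difference of its injury effects between the ages missed the threshold (adjusted p = 0.744). The other alpha subunits Psma2, Psma3, Psma5 and Psma6 had log2 fold changes between -0.095 and 0.24 and did not pass the test.

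Psma8, the alpha subunit of the testis, had low counts. It had 1, 3 and 2 counts in young naïve and 22, 22 and 32 in young injured pools, and 7, 1 and 7 against 24, 53 and 35 counts in middle-aged mice. The pools did not overlap, and the fitted log2 fold changes of 3.24 (SE 0.62, adjusted p = 0.000476) and 2.73 (SE 0.54, adjusted p = 0.000538) rest on 1 to 7 counts in each naïve pool. Psma8 passed the filter on low counts only through its injured pools. At 1.13 and 1.82 CPM per kilobase after injury, it stayed far below Psma7 (21.3 and 20.5). Of the structural beta subunits, Psmb2 rose in middle-aged mice by 0.54 (SE 0.14, adjusted p = 0.00388), and Psmb1, Psmb3 and Psmb4 passed the test at neither age.

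The 19S ATPases, which unfold the substrate, held both members that fell at both ages. Psmc5 was the most abundant member per kilobase in naïve tissue, at 272 ± 26.6 CPM per kilobase in young and 503 ± 201 in middle-aged mice. In CPM it stood at 394, 356 and 324 (young naïve), and at 157, 178 and 151 (young injured). At middle age it stood at 430, 950 and 604 CPM in naïve and at 178, 221 and 153 CPM in injured pools. Naïve and injured pools did not overlap, and the log2 fold changes were -1.15 (SE 0.22, adjusted p = 0.000564) and -1.85 (SE 0.23, adjusted p = 7.78e-06). Without middle-aged naïve replicate 2 the latter was -1.49 (adjusted p = 2.67e-06). Psmc1 fell by 0.36 in young (adjusted p = 0.0217) and by 0.45 at middle age (adjusted p = 0.00575), and the young call was lost in 5 of 12 fits with a pool left out. Psmc6 rose in middle-aged mice by 0.48 (adjusted p = 0.00868), and Psmc2, Psmc3 and Psmc4 passed the test at neither age. Subunits of 1 ring thus moved in different directions at the level of RNA.

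Of the 11 non-ATPase subunits of the cap, Psmd8 changed most. It stood at 121, 123 and 102 CPM in young naïve and at 238, 243 and 241 CPM in young injured pools, and at 101, 132 and 88.9 CPM against 264, 277 and 251 CPM in middle-aged mice. The log2 fold changes of 1.06 (SE 0.14, adjusted p = 1.29e-05) and 1.30 (SE 0.14, adjusted p = 1.53e-06) made it the member with the highest level per kilobase in both injured groups, at 156 and 171 CPM per kilobase. Psmd14, the deubiquitinase of the cap, rose in middle-aged mice by 0.51 (adjusted p = 0.00449). Psmd11 rose in young mice by 0.35 (adjusted p = 0.0299), a call lost in 4 of 12 fits with a pool left out. Psmd4, a ubiquitin receptor, fell in middle-aged mice by 0.52 (adjusted p = 0.0436), but the value was -0.24 (adjusted p = 0.251) without naïve replicate 2, and the call was lost in 10 of 12 such fits.

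Of the assembly chaperones, 1 of 7 passed the test, as higher in middle-aged mice, where 29.2% of all genes rose. Psmd10, known as gankyrin, rose in middle-aged mice by 0.48 (adjusted p = 0.0229) and lost its call in 4 of 12 fits with a pool left out. The chaperones Psmg1 to Psmg4 of the 20S core had log2 fold changes between -0.62 and 0.56. Psmg4 was uneven, with 66, 236 and 39 counts in the middle-aged naïve pools. Psmc3ip rose by 1.34 in young (adjusted p = 0.00119) and 1.40 at middle age (adjusted p = 0.000738), from 23 to 66 counts in naïve to 97 to 136 in injured pools. It shares 385 exonic bases with Mlx on the opposite strand.

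Leaving out middle-aged naïve replicate 2 added calls among these genes. At middle age 8 members gained a call, all higher, and 2 lost one (Psmd4 and Psme2b). The gains were the alpha subunits Psma3 (0.37), Psma5 (0.52) and Psma6 (0.49), the beta subunit Psmb3 (0.56), the ATPase Psmc4 (0.63), the cap subunits Psmd2 (0.41) and Psmd11 (0.38) and the chaperone Psmg1 (0.71). In young mice, whose own pools were unchanged, 5 gained a call as higher, namely Psmb3 (0.36), Psmd2 (0.29), Psmd14 (0.32), Psme3 (0.33) and Psmg1 (0.56). Psmb1 (-0.29) and Psmb7 (-0.31) gained one as lower.

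In white matter without a lesion, Psmb8, Psme1 and Psmc5 were higher at middle age, so that 3 of 49 members were called, beside 3.8% of all genes. The pools of the 2 ages did not overlap for any of the 3. The log2 difference was 1.46 for Psmb8 (SE 0.29, adjusted p = 0.0117), 0.85 for Psme1 (SE 0.20, adjusted p = 0.0331) and 0.88 for Psmc5 (SE 0.22, adjusted p = 0.0417). Psmb9 was at 1.48 (SE 0.75, adjusted p = 0.32), and Psmb10 at -0.53 (SE 0.27, adjusted p = 0.315). The constitutive genes had a median difference of 0.087 with all pools.

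These calls were sensitive to single pools. Psmb8 kept its call in 11 of 12 fits with a pool left out and lost it without young naïve replicate 2 (1.41, adjusted p = 0.0576). Without middle-aged naïve replicate 2, Psmb8 was higher by 1.21 (adjusted p = 0.0312) and Psmb9 by 2.02 (adjusted p = 0.019). In that fit Psme1 (0.65, adjusted p = 0.0729) and Psmc5 (0.53, adjusted p = 0.0932) missed the threshold, Psma5 and Psmb2 were lower (-0.62 and -0.55, adjusted p = 0.0139 and 0.0365), and the median of the constitutive genes turned to -0.15. In a fit of the 6 naïve pools alone, 0 members were called. Psme1 lost its call in 7 and Psmc5 in 9 of 12 fits with a pool left out, among them each fit without 1 young naïve pool, with values of 0.80 to 0.93 and 0.82 to 0.96.

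In injured tissue the ages were not distinguished for any member. Of 49 members, 0 were called, beside 1.15% of all genes. An unadjusted p under 0.05 by edgeR was reached by 0 members, beside 9.62% of all genes. DESeq2 also called 0. The estimates lay between -0.23 and 0.69. For Psmb8, which differed by age in naïve tissue, the log2 difference between injured groups was 0.25 (adjusted p = 0.904).

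The difference between the injury effects of the 2 ages was tested directly and was called for 0 of 49 members, beside 0.139% of all genes, and DESeq2 also called 0. An unadjusted p under 0.05 was reached by 5 of 49 members, beside 9.92% of all genes. They were Psmb8, Psme1, Psme2b and Psmc5, with estimates of -1.21, -0.78, -1.97 and -0.70 (middle-aged minus young), and Psmb10, with 0.81. The smallest unadjusted p was that of Psmb8 (0.00476, adjusted p = 0.218). The injury effects of the 2 ages were thus not shown to differ.

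The neighbouring steps of antigen presentation, a list of 12 genes for peptide transport, trimming and loading and for MHC class I, rose in full at both ages, against 28.3 and 29.2% of all genes. The median log2 fold change was 1.86 in young and 1.83 in middle-aged mice. In middle-aged mice, 11 of 12 rose without naïve replicate 2, and Tapbpl missed the threshold (0.70, adjusted p = 0.0976). In young mice the highest changes were those of Nlrc5, which switches on MHC class I genes (3.65, adjusted p = 6.82e-06), of the transporter Tap1 (3.20, adjusted p = 7.02e-05) and of B2m, the light chain of MHC class I (2.91, adjusted p = 4.95e-09). In middle-aged mice they were those of the heavy chain H2-D1 (3.19, adjusted p = 2.48e-09), B2m (2.89, adjusted p = 4.27e-09) and the heavy chain H2-K1 (2.69, adjusted p = 2.95e-08). With age in naïve tissue, H2-K1 was higher (0.73, adjusted p = 0.0433), a call lost without middle-aged naïve replicate 2 (0.58, adjusted p = 0.102), where Nlrc5 gained one (1.85, adjusted p = 0.00651).

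Of 21 interferon genes, receptors, signalling proteins and induced genes, 18 were tested. In young mice 16 (88.9%) rose, and in middle-aged mice 12 (66.7%) rose, against 28.3 and 29.2% of all genes, with medians of 1.87 and 1.099. Interferon gamma (Ifng) had 1 count in the whole series and interferon beta (Ifnb1) had 0, so both stayed under the floor in all 12 pools. Cxcl9 had at most 4 counts. The highest changes in young mice were those of the chemokine Cxcl10 (6.08, adjusted p = 7.33e-05), the ubiquitin-like Isg15 (4.02, adjusted p = 2.91e-05) and Irf7 (3.42, adjusted p = 0.000226). In middle-aged mice they were those of Irf7 (2.56, adjusted p = 0.00107), Ifngr2 (2.32, adjusted p = 6.97e-09) and Irf1 (1.79, adjusted p = 0.000139).

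With age in naïve tissue, 3 of 18 interferon genes (16.7%) were higher, beside 3.8% of all genes called in either direction. The other 15 were not called. Some interferon-induced RNA was thus already present in the middle-aged naïve pools, unevenly. Cxcl10 stood at 29.3, 8.28 and 3.76 CPM there, against at most 0.859 CPM in young naïve pools, and was higher by 5.51 (adjusted p = 0.00522). Its injury effects at the 2 ages differed by -6.19, at an adjusted p of 0.0533. Ifit1 was higher by 2.15 (adjusted p = 0.026) and Ifit3 by 1.93 (adjusted p = 0.0394). Isg15 passed the test in the fit without replicate 2 (2.42, adjusted p = 0.0271). Replicate 1 was the highest of the 3 pools for Cxcl10, for Ifit1 (37.86, 11.74 and 6.713 CPM) and for Ifit3 (93.55, 27.15 and 19.34 CPM). It was also the highest for Tap1 (23.4, 9.54 and 4.24 CPM) and for Psmb9 (3.83, 0.0 and 1.998 CPM), whereas Psmb8 was highest in replicate 2.

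**Figure D5:**
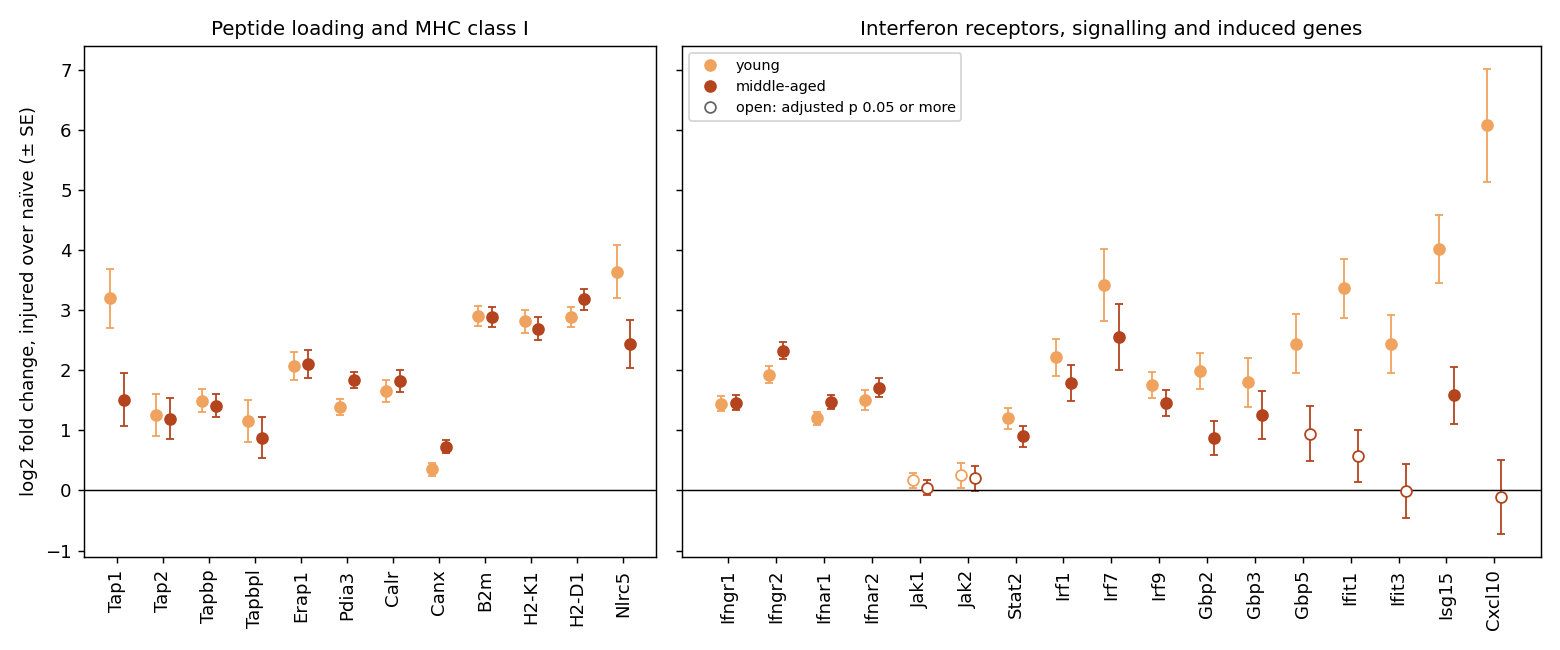
Log2 fold change of injured over naïve white matter (y axis, with standard error) for genes of peptide loading and MHC class I (left) and for interferon receptors, signalling and induced genes that were tested (right, with 1 gene left out). Filled points had an adjusted p under 0.05. All 12 genes on the left rose at both ages. Cxcl10 is at 6.08 in young and -0.10 in middle-aged mice.

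Proteins that work with the proteasome but fall outside the rule were examined as a further list. Of 21 listed, 20 were tested (Paaf1 was not matched). In young mice 5 of 20 rose and 3 fell, and in middle-aged mice 8 rose and 2 fell, beside 28.3, 26.3, 29.2 and 29.3% of all genes, with medians of 0.16 at both ages. Leaving out middle-aged naïve replicate 2, Ecpas also rose in young mice (0.31, adjusted p = 0.0435) and Ubqln2 lost its middle-aged call (-0.33, adjusted p = 0.128). Sem1, a small cap subunit, rose by 0.92 (adjusted p = 0.0051) and 0.70 (adjusted p = 0.0225). Ddi2, the protease that activates the transcription factor Nfe2l1, rose by 0.78 (adjusted p = 4.53e-05) and 0.76 (adjusted p = 4.99e-05). Nfe2l1, which drives constitutive proteasome genes, did not pass the test (-0.18 and -0.27, adjusted p = 0.264 and 0.0975). Ufd1, a partner of the unfoldase Vcp, fell by 0.47 (adjusted p = 0.00287) and 0.42 (adjusted p = 0.00627).

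Markers of different cell types moved in different directions after injury. Of 9 pan-myeloid markers, 9 rose at both ages, and their sum was 101 to 135 CPM in young naïve, 158 to 227 CPM in middle-aged naïve, 1975 to 2030 CPM in young injured and 2033 to 2632 CPM in middle-aged injured pools. Each of the 9 had counts in all 12 pools, and 6 of 9 were higher in middle-aged than in young naïve mice (4 of 9 without middle-aged naïve replicate 2). Of 6 T and NK cell markers, 0 passed the filter, Cd3d and Cd8a were at 0 in all 6 naïve pools, and the sum was at most 0.629 CPM in naïve pools, 1.32 CPM in young injured and 4.06 CPM in middle-aged injured pools. Middle-aged naïve replicate 2 held all the naïve counts of Cd3g. In the fit leaving out that pool, Cd3g passed the filter through injured pools only and was called higher at both ages. Every naïve pool left in that fit was at 0, so these calls followed from the removal and are not read as a result. All 6 oligodendrocyte markers fell at both ages, and they were lower at middle age for 3 of 6 genes in naïve and 5 of 6 in injured tissue. Of 5 astrocyte markers 4 fell at both ages (sum 9439 to 11770 CPM in naïve, 3523 to 5619 CPM in injured pools). Of 4 neuron markers 2 fell in young mice, and 3 fell and 1 rose in middle-aged mice, with sums of 680 to 1974 CPM in naïve and 274 to 479 CPM in injured pools. Of 3 endothelial markers, 1 rose in young mice, and 1 rose and 1 fell in middle-aged mice (sum 106 to 183 CPM in naïve and 111 to 173 CPM in injured pools). In the fit without middle-aged naïve replicate 2, Cldn5 also rose (0.52, adjusted p = 0.046) and Flt1 fell (-0.30, adjusted p = 0.0484) in young mice. The part of cell composition in the changes of the members was not tested.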

How the data were processed

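RNA of laser-captured white matter was sequenced in 12 pools, 3 in each of 4 groups taken from the sample labels. Per the methods and the submitters' processing notes, the authors checked reads with FastQC 0.11.4, mapped them to GRCm38 with TopHat2 2.0.10 and Bowtie 1.1.2, and counted them over genes with featureCounts. The deposited values are these whole-number counts, without normalization. The annotation release, the strand setting and the handling of shared reads are not given in the sources used here. Totals were 9834447 to 12807437 counts per pool, so genes of a few counts, such as Psmb9 in naïve tissue, are imprecise.

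Counts were fitted in R 4.3.3 with edgeR 4.0.16 (TMM, filterByExpr, glmQLFit, glmQLFTest), with all 12 pools in a model with 1 coefficient per group. Adjusted p-values are Benjamini-Hochberg values over all 15866 genes tested, with a threshold of 0.05. The steps were tested on simulated data. Gene positions and transcripts came from GENCODE M21 and upstream sequences from RefSeq, both on GRCm38. Ratios of pairs were tested by 2-sided exact permutation, with 0.5 counts added for Psmb9 and Psmb6. This addition had been planned as an alternative and was made the reported value because of a zero. Alternatives were 3 other scalings, DESeq2 1.42.0, 2 other filters, the replicate number as a block, the compared pools alone and each pool left out. Members, lists and motifs were chosen with earlier results of these data known. Genes given in full were the 6 catalytic subunits, Psme1 to Psme3 and in each comparison, the 3 called members at either end of the range of log2 fold changes. Other members were described by role. Psmd8, which changed most among the non-ATPase subunits, was also given in full, outside this rule. From each further list up to 3 called genes of each direction were named, and list members near 0 counts. Nfe2l1, the Tap1, Ifit1 and Ifit3 levels of naïve pools and genes whose call changed without middle-aged naïve replicate 2 were named after their values were seen. Values of 1 listed gene are not reported here.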

Additional observations from a re-analysis of the deposited data

How the results depend on the processing

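The 39 calls of single members were recomputed under 20 alternatives each, and 27 kept their direction and their call under all. Of 780 values, 693 kept both, 87 lost the call and 0 changed direction. The calls of Psmb8, Psmb9, Psmb10, Psme1, Psme2, Psme4, Psma1, Psma8, Psmd8, Psmc3ip and Psmc5 after injury held throughout. Calls were lost most often for Psmd4, Psmb6 and Psma7 after injury in middle-aged mice and for Psmc5 and Psme1 with age. For members called after injury in young mice, scaling by library totals gave 24 in all, 23 higher and 1 lower, and it moved the median of all genes by 0.196. The compared pools alone gave 23 in all with 5 lower, and no filter on low counts gave 1 lower. With a pool left out, the counts ranged from 13 to 22 in all and from 1 to 4 lower (4 without middle-aged naïve replicate 2, 1 without young naïve replicate 2 or any 1 young injured pool). In middle-aged mice they ranged from 15 to 27, 27 of them without naïve replicate 2. For age in naïve mice the count was 0 in the compared pools alone and ranged from 0 to 4 with a pool left out (4 without middle-aged naïve replicate 2, 0 without young naïve replicate 2, and 1 or 2 without any other young pool or middle-aged injured replicate 1). Changes of the 3 pair ratios differed under no alternative by more than the SD between pools. Those of Psmb9 to Psmb6 in middle-aged mice ranged from 1.18 to 4.50 with a pool left out, beside an SD that 1 naïve pool without a count made wide, and that ratio has no value without an added count. Numbers shared by the labels did not pair the pools (correlations of deviations -0.113 to 0.153), and with the replicate block 15 members were called after injury in young and 20 in middle-aged mice, where Psma7 lost its call. Where a call was lost or a count moved, the cause was not tested. The calls without middle-aged naïve replicate 2 for lists were added after the data were seen. Depth limits Psmb9, Psma8, Psme2b and Psmb11, which had under 10 counts in most naïve pools or in all.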
